A study of Mus musculus with 4 samples.

Results

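The comparison set fibroblasts lacking both Gadd45 and the telomerase RNA Terc, taken from the third generation (G3) of Terc deficiency, against wild-type fibroblasts. Genes were members when their mean was 1 FPKM or more over the 2 libraries, after symbols of short RNA were left out. FPKM scales sequenced fragments to the length of the transcript and to the mapped fragments of the library, so levels of different genes can be compared per length. This gave 11408 genes of 23235 symbols, or of the 22492 that were not short RNA. The cells were primary fibroblasts from embryos of C57BL/6 mice, and poly(A) RNA was sequenced in 4 libraries, 1 per genotype. The genotypes were wild type, Gadd45-/-, G3 Terc-/- and G3 Gadd45-/-Terc-/-, labelled dKO, and the series' design text gives the Gadd45 gene as Gadd45a. The labels name no Cre or transgene, and the age of the embryos and the number behind each culture are not given in the sources used here. Every difference below is between single cultures, has no replicate check and carries no test.

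Telomerase lengthens chromosome ends by copying the RNA template that Terc encodes, and mice bred for several generations without it inherit ever shorter telomeres. Cells with very short or damaged telomeres can leave the cell cycle through p53 and CDK inhibitors, and such cells often secrete inflammatory proteins and express interferon-stimulated genes. Gadd45a is a small stress-induced protein, itself a p53 target, that has been linked to DNA repair, DNA demethylation and p38 kinase signalling.

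The transcript of the targeted gene went against the label. Gadd45a read 22.9 FPKM in wild type, 33.9 under the Gadd45-/- label, 31.4 under the G3 Terc-/- label and 45.1 under the G3 dKO label, which is 1.97-fold above wild type. The files give 1 value per gene, so reads inside and outside a deleted stretch could not be separated, and the text speaks of the library labelled G3 dKO for this reason. Terc, below the FPKM limit and so no member, was 0.530 FPKM in wild type and listed at 0 in both G3 libraries. The paralogues Gadd45b and Gadd45g were at 26.6 and 118 FPKM in wild type and at 25 and 118 under the G3 dKO label.

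The cultures carried the defining genes of fibroblasts. All 12 fibroblast markers were members, with a summed level of 12905 FPKM in wild type and 12796 under the G3 dKO label, and 1 of them, Dcn, passed the size rule given below. Among the 12 marker lists for other cells, the epithelial Epcam read 0.0552 and 0 FPKM and Cdh1 0 and 0.0119 in the compared pair, and the endothelial Cldn5 was listed at 0 in all 4 libraries. Other markers in these lists were detected: Krt19, of epithelium and mesothelium, read 12.0 and 15.9 FPKM, and the endothelial Egfl7 4.64 and 2.87. Of 7 mesothelial markers 6 were members and 0 passed the size rule, with a summed level of 28.9 FPKM in wild type and 35.9 under the G3 dKO label and Upk3b at 4.89 and 6.78. Xist was at 24.0 FPKM in wild type and 34.1 under the G3 dKO label, and the Y-linked Ddx3y at 0.0115 and 0.0113, so these 2 libraries were alike in sex-linked transcripts. The Gadd45-/- library differed from them, with Ddx3y at 16.4 FPKM. Depth estimated from low values was 19500000 to 19900000 fragments per library, at which 1 FPKM on a transcript of 2 kb stands for about 39 fragments in wild type and 39.8 under the G3 dKO label.

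Members were called higher or lower where log2(FPKM + 1) differed by at least 1, a 2-fold difference of FPKM + 1 that understates the ratio of low genes. By this size rule 432 members (3.79%) were higher and 331 (2.9%) lower under the G3 dKO label, 6.69% in all. Each list count below is to be read against these shares, and a small count in a short list says little beside them. Differences reached at least 2 for 68 higher and 38 lower genes, and at least 3 for 12 and 4. The median difference over all members was -0.05, and the quartiles were -0.30 and 0.23. Against the same wild-type library the median absolute difference was 0.27 for G3 dKO, 0.39 for G3 Terc-/- and 0.10 for Gadd45-/-, and because the 3 comparisons share that library only their own values are set side by side here. In bulk RNA, fewer cells of a type and less RNA per cell cannot be told apart.

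At the limits, Zfp873 (0.782 and 1.22 FPKM in wild type and G3 dKO) and Fzd3 (0.907 and 1.10) lay just inside the mean of 1, and Rtn4rl2 (0.290 and 1.70) and Gch1 (0.880 and 1.12) just outside it. By size, Ptprk (6.02 and 13) was just counted as higher and Snx32 (2.55 and 6.10) just missed. Fbxo5 (9.07 and 4.03) was just counted as lower and Tmem144 (3.97 and 1.49) just missed. The listed zero values are few: 9 members were at 0 in one of the pair, and all 9 were counted.

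**Figure D1:**
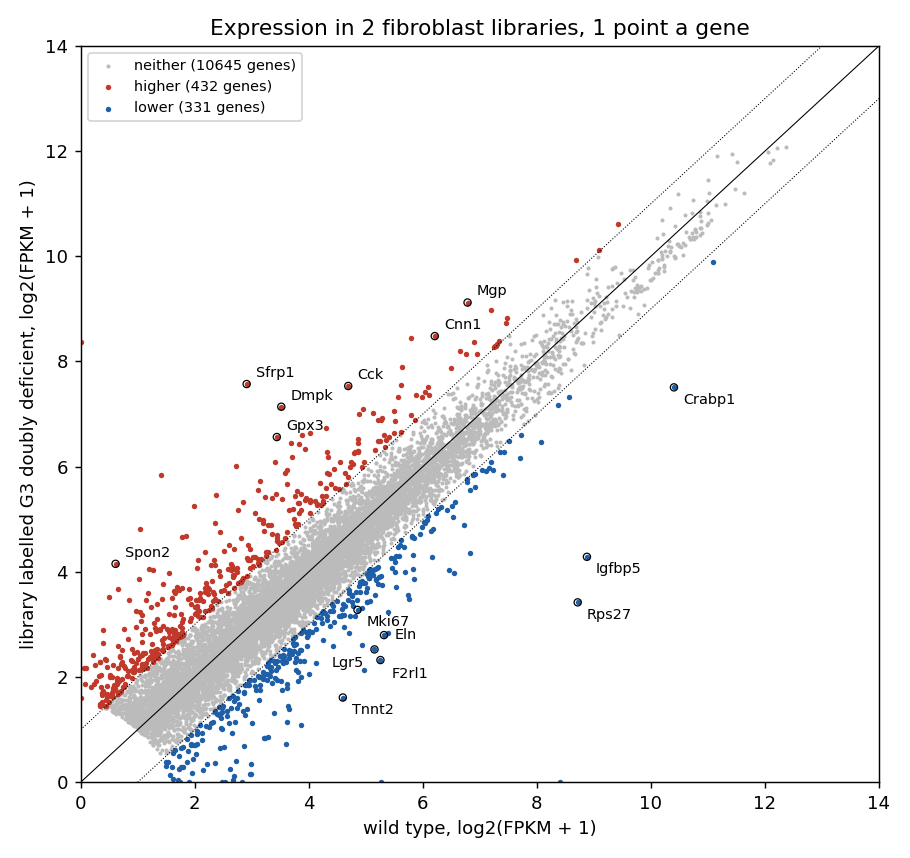
Level of each of the 11408 members in wild type (horizontal, log2 of FPKM + 1) and under the G3 dKO label (vertical, same scale), 1 point per gene, with dotted lines at the size rule. The 432 higher members are red and the 331 lower ones blue, and most members lie near the diagonal.

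Genes of cell division were lower. Of 40 measured mitosis genes, 33 were lower and 0 higher by the size rule, 39 were below 0, and their median difference was -1.13, against -0.05 over all members. Of 39 genes of DNA replication and the entry into S phase, 19 were lower, 0 higher, and all 39 were below 0, with a median of -1.0. In the same lists the G3 Terc-/- medians were -2.13 and -1.48, and the Gadd45-/- medians were -0.07 and -0.05. With a pseudocount of 5 FPKM, 7 mitosis genes and 10 replication genes were counted as lower.

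Mki67, the proliferation antigen Ki-67, read 27.9 FPKM in wild type, 24.1 under Gadd45-/-, 2.97 under G3 Terc-/- and 8.69 under the G3 dKO label. Ccnb1, the cyclin that drives entry into mitosis, read 36.5, 36.4, 4.06 and 14 FPKM in the same order. For both genes the library labelled G3 dKO lay between wild type and G3 Terc-/-, while Gadd45-/- lay close to wild type. Birc5, the survivin subunit of the chromosomal passenger complex, read 55.6, 49.5, 8.03 and 18.9 FPKM, and Bub1, a spindle checkpoint kinase, 8.69, 6.82, 1.57 and 2.85. Pttg1, the securin gene, was the 1 mitosis gene above 0, at a difference of 0.35, and is named because it was seen to differ from the rest.

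Gins1, a subunit of the replicative helicase, had the largest difference of the replication list at -1.78, with 10.6, 7.91, 1.38 and 2.38 FPKM in the order above. Subunits of the MCM helicase, which unwinds origins, were among the lower genes too. Mcm3 read 31.5 FPKM in wild type and 9.75 under the G3 dKO label, Mcm5 23.0 and 8.75, and Mcm6 43.2 and 15.9. Uhrf1, which links replication to maintenance of DNA methylation, read 26.4 and 9.18, and Chaf1b, a subunit of the chromatin assembly factor, 13.4 and 4.75. Each of these 5 genes was lower still under the G3 Terc-/- label, at 3.53 to 8.72 FPKM.

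Many mitosis genes carry a cell cycle homology region, TTTGAA, and CCAAT boxes in their promoters, which bind repressor and activator complexes of the cell cycle. Promoter windows, 250 bases before to 50 after a gene's start, were read on both strands from RefSeq on GRCm38.p6 for 9081 of the 11408 members (11623 windows), and the build of the expression files differs. TTTGAA was in 24 of 34 windows of the mitosis list (70.6%) and in 11.6% of all member windows, and CCAAT in 25 of 34 (73.5%) and in 37.8%. Among all lower members, 23.4% of windows held TTTGAA, and 20 of these 68 windows were of the mitosis list. CCAAT was in 42.3% of windows of all lower members, near its share over all members. A match is a description of letters, not a site. The 4 windows below, shown over 150 bases before to 50 after the start because they carry both motifs, were chosen after the matches were seen. They are Plk1 (chr7:122159285-122159484, plus strand), Cdc20 (chr4:118437294-118437493, minus strand), Ccnb2 (chr9:70421505-70421704, minus strand) and Cenpa (chr5:30666736-30666935, plus strand), printed 5′ to 3′ with TTTGAA and CCAAT, on either strand, in capitals.
Plk1: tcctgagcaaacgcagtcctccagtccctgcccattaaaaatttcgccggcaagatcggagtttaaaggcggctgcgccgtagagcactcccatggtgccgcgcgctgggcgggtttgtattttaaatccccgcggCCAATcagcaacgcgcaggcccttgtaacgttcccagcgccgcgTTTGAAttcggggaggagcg
Cdc20: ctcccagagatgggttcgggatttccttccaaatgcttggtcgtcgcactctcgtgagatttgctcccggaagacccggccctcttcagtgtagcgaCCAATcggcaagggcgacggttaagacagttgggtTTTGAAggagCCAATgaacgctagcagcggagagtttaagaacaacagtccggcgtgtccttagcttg
Ccnb2: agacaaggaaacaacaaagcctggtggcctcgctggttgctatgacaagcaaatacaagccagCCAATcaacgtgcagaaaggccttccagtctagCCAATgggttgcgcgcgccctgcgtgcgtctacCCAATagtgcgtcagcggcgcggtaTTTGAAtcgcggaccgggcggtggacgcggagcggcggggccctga
Cenpa: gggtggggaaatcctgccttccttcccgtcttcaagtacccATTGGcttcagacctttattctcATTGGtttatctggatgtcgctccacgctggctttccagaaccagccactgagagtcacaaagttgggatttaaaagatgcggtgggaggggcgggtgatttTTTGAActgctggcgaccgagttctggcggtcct

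Genes for chromatin and the nuclear lamina included lower members whose loss is often used as a mark of senescence. Lmnb1, lamin B1, read 34.0 FPKM in wild type, 30.7 under Gadd45-/-, 5.97 under G3 Terc-/- and 14.4 under the G3 dKO label. Hmgb2 and Hmgb1, abundant DNA-bending proteins, read 31.1 and 162 in wild type and 11.3 and 76.9 under G3 dKO, and Hells, a chromatin remodeller, 11.7 and 4.58. The list of heterochromatin and DNA methylation genes, which also holds lamins and HMGB genes, had 28 measured members and a median of -0.43. In it 5 were lower and 0 higher, against 2.9% of all members lower. These 5 were Lmnb1, Hmgb1, Hmgb2, Hells and Uhrf1, and Uhrf1 is also in the replication list. The list's histone methyltransferase genes did not pass the rule. Of 32 genes of the DNA damage response 2 were lower and 0 higher, where 2.9% of all members were lower, and the median was -0.53. The count of lower genes in this list was 8 with a pseudocount of 0.1 FPKM. It was 0 with 5 FPKM or among genes with a mean of at least 5 FPKM.

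Of 9 measured CDK inhibitors and pocket proteins, which halt the cycle, 0 passed the size rule, against 6.69% of all members. A list this short says little by its count. Its median was 0.14 against 0.54 under G3 Terc-/-. Cdkn1a, which encodes p21, read 236 FPKM in wild type, 249 under Gadd45-/-, 452 under G3 Terc-/- and 280 under the G3 dKO label. Cdkn2a, the p16 and Arf locus, read 93.9, 115, 407 and 156, and Cdkn2b 80.7, 71.6, 121 and 68.0. The lysosomal galactosidase gene Glb1, whose activity is the usual stain for senescence, was 26.5 in wild type and 33.4 under G3 dKO.

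Of 35 measured p53 targets 1 was higher, Fas, where 3.79% of all members were higher, and the list median was 0.18. Fas, a death receptor, read 3.29 FPKM in wild type, 5.18 under Gadd45-/-, 41.1 under G3 Terc-/- and 7.86 under the G3 dKO label. Trp53 itself was 85.5 in wild type and 59.4 under G3 dKO. No member of the 17 measured telomerase and telomere-cap genes passed the rule, against 6.69% of all members, and their median was -0.33. The telomerase catalytic gene Tert was 1.21 and 2.01 FPKM, and Dkc1, which stabilizes the telomerase RNA, 17.0 and 8.14.

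Interferon-stimulated genes lay mostly above wild type, by little. Of 36 measured members 8 were higher and 0 lower, 30 were above 0, and the median was 0.52, against 2.96 under G3 Terc-/- and 0.29 under Gadd45-/-. A further 11 of the 47 listed genes lay under the FPKM limit. Only 1 gene was counted with a pseudocount of 5 FPKM, 13 with 0.1, and 2 among genes with a mean of at least 5 FPKM.

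Ifi27l1, an interferon-alpha inducible gene, read 46.3 FPKM in wild type, 90.7 under Gadd45-/-, 163 under G3 Terc-/- and 160 under the G3 dKO label. It was the list member with the largest difference, 1.77, and the 2 G3 libraries were alike. The other named members lay far below G3 Terc-/-: Zbp1, a sensor of Z-form nucleic acid, read 0.177, 0.899, 36.2 and 2.67, and Ifit3, an antiviral RNA-binding protein, 1.48, 1.98, 50.5 and 4.66. Irf7, the master regulator of interferon genes, read 2.88, 3.66, 110 and 6.46, a difference of 0.94 that missed the rule. Isg15, a ubiquitin-like modifier, read 17.0, 26.7, 268 and 20.3.

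Interferon-stimulated promoters are known for the element GAAANNGAA, bound by IRF and STAT complexes. It was in 14 of 32 windows of the list (43.8%) and in 6.69% of all member windows. Of the 8 higher members of the list only 5 had windows, 6 in all, and 5 of these 6 windows held it. Among all higher members 7.88% of windows held it. Shown are the guanylate-binding protein genes Gbp2 and Gbp3, which were higher, and Isg15, which was not past the rule, all chosen after the matches were seen. The windows are Gbp2 (chr3:142620513-142620712, plus strand), Gbp3 (chr3:142559894-142560093, plus strand) and Isg15 (chr4:156200769-156200968, minus strand) on GRCm38.p6 from RefSeq, with GAAANNGAA on either strand in capitals. Overlapping matches make longer runs of capitals.
Gbp2: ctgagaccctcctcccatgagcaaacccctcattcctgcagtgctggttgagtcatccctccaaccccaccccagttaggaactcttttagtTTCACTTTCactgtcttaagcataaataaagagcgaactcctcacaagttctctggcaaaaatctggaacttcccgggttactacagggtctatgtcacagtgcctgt
Gbp3: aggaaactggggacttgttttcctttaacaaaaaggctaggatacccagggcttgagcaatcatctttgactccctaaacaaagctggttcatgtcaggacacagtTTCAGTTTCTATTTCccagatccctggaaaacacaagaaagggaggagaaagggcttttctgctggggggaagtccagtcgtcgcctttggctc
Isg15: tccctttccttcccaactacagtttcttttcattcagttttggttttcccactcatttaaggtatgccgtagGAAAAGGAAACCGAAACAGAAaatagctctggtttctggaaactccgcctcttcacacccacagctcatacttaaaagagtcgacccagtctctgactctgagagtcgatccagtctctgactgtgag

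Secreted inflammatory factors split between a few higher genes and many near wild type. Of 27 measured members 7 were higher and 0 lower, and the median was 0.44 against 2.82 under G3 Terc-/-. Plau, the urokinase plasminogen activator, read 18.7 FPKM in wild type, 35.6 under Gadd45-/-, 47.6 under G3 Terc-/- and 105 under the G3 dKO label, the highest of the 4. Ptgs2, the inducible cyclooxygenase, read 28.6, 41.5, 344 and 128, and Csf1, a macrophage growth factor, 99.3, 157, 695 and 294. Il6 read 0.870, 2.1, 40.2 and 4.77.

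Several genes very high under G3 Terc-/- were at or below wild type under the G3 dKO label. Saa3, an acute-phase serum amyloid, read 9.55 FPKM in wild type, 9.95 under Gadd45-/-, 5800 under G3 Terc-/- and 8.73 under G3 dKO. Ccl2, a monocyte chemokine, read 104, 112, 1638 and 93.0, and Cxcl10, an interferon-induced chemokine, 1.89, 1.79, 32.5 and 0.951. Macrophage markers summed to 5.63 FPKM in wild type and 20.4 under G3 dKO, led by Lyz2 at 2.1 and 11.5. Cd14 was 0.792 and 2.33, Tyrobp 0.283 and 1.52, Fcgr3 0.0446 and 0.611, and Csf1r 0.363 and 0.901. Ptprc was 0.0508 and 0.0795, and Aif1, below wild type, 0.153 and 0.149. The part of macrophage markers in the inflammatory values was not tested.

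**Figure D2:**
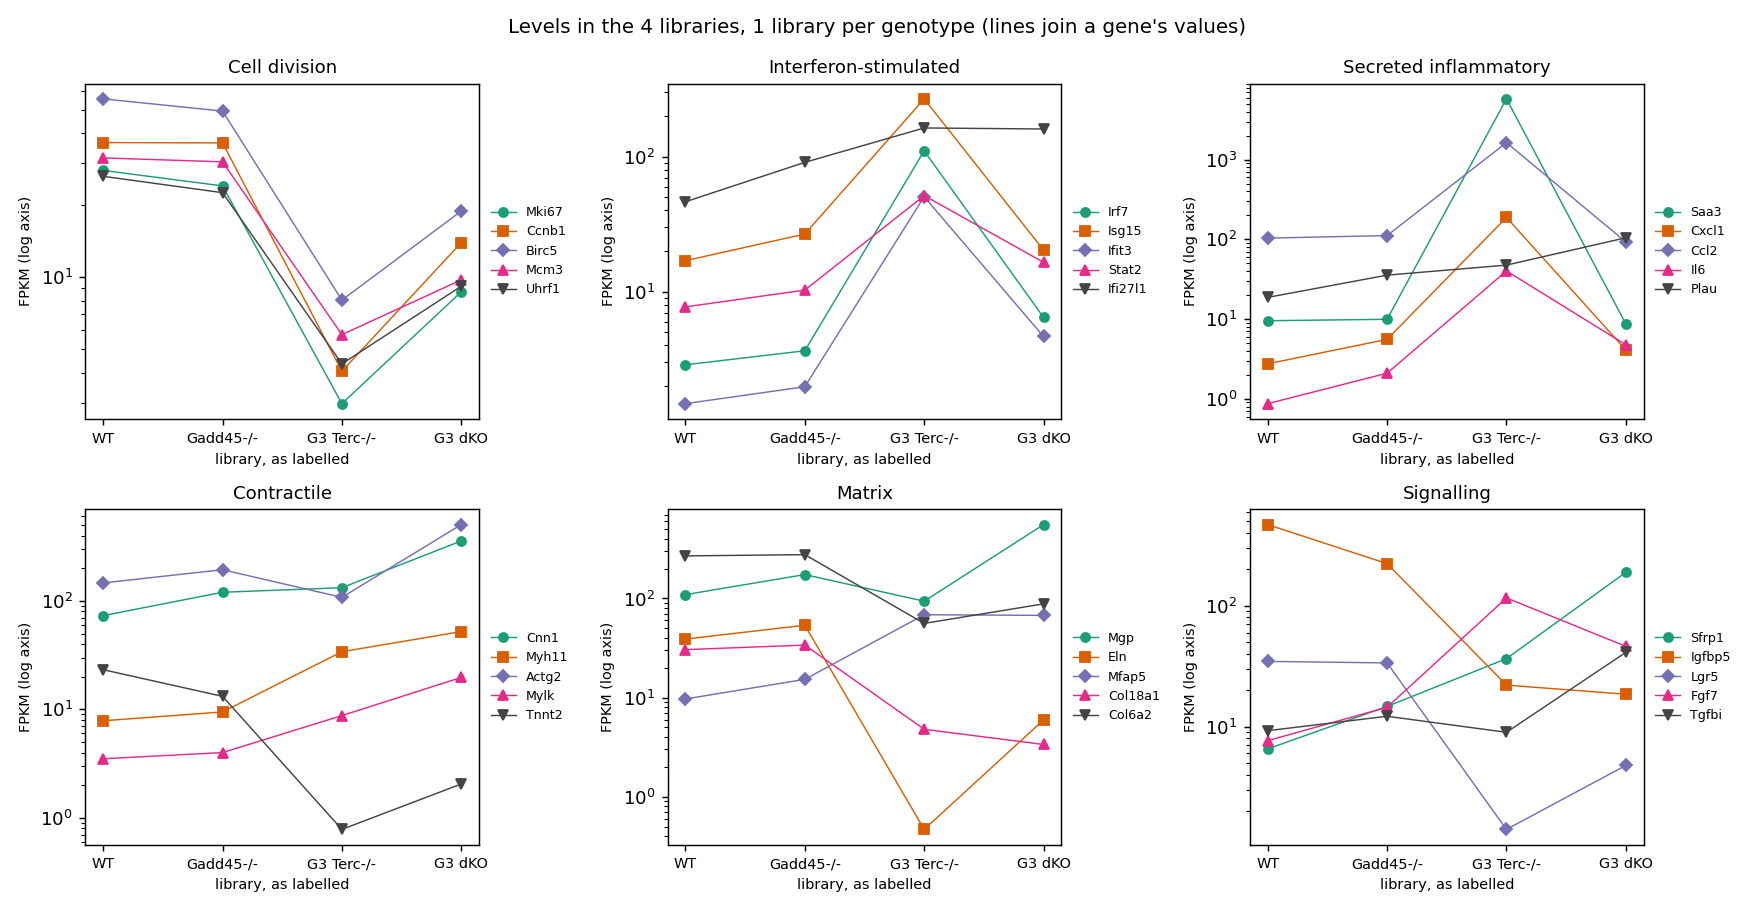
Levels of named genes in the 4 libraries, wild type, Gadd45-/-, G3 Terc-/- and G3 dKO as labelled (horizontal), in FPKM on log axes (vertical), 1 point per library with no error and lines joining a gene's points. Mki67 lies between wild type and G3 Terc-/- under the G3 dKO label, and Saa3 lies next to wild type; Stat2 was added after its values were seen.

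Genes of the contractile apparatus, which smooth muscle and myofibroblasts use, lay mostly above wild type. Of 22 measured members 6 were higher, 1 lower and 20 above 0, with a median of 0.59, against 0.05 under G3 Terc-/- and 0.22 under Gadd45-/-. Cnn1, calponin, read 73.1 FPKM in wild type, 120 under Gadd45-/-, 132 under G3 Terc-/- and 357 under the G3 dKO label. Myh11, smooth muscle myosin, read 7.86, 9.48, 34.0 and 52.1, and Actg2, enteric smooth muscle actin, 146, 194, 108 and 504. In each of these 3 genes the library labelled G3 dKO was the highest of the 4.

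Acta2, smooth muscle actin and the usual myofibroblast marker, read 2756, 3253, 1913 and 3946 FPKM in the same order, a difference of 0.52 that missed the rule. Mylk, myosin light chain kinase, was 3.51 in wild type and 19.7 under G3 dKO. The 1 gene called lower, Tnnt2, cardiac troponin T, read 23.2, 13.2, 0.784 and 2.05, and Des, desmin, was also below wild type, at 25.9 and 18.6 FPKM. Summed skeletal and cardiac muscle markers were 67.0 FPKM in wild type and 128 under G3 dKO. The larger sum rests on 1 gene, Acta1, at 38 and 120, while Tnnt2, also in that list, was lower. The part of these markers in the contractile values was not tested.

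Matrix genes differed in both directions. Of 31 collagens and collagen-processing genes 3 were higher and 7 lower, and the median was 0.05 against -0.76 under G3 Terc-/-. Col1a1, the main fibrillar collagen chain, read 4270 FPKM in wild type, 4565 under Gadd45-/-, 1697 under G3 Terc-/- and 4037 under the G3 dKO label, and Col3a1 470, 596, 276 and 812. Col1a1 was thus close to wild type under G3 dKO, and Col3a1 was the highest of the 4. Col18a1, whose fragment is endostatin, read 30.5, 33.8, 4.79 and 3.36, and Col6a2, a beaded-filament chain, 269, 277, 56.0 and 88.2.

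Among elastic fibre and basement membrane genes 7 of 30 were higher and 3 lower, and the median was 0.37. Eln, elastin itself, read 38.9 FPKM in wild type, 53.7 under Gadd45-/-, 0.468 under G3 Terc-/- and 5.95 under the G3 dKO label. Microfibril genes did not share one direction: Mfap5 read 9.68, 15.3, 68.5 and 67.5, while Mfap4 read 53.1, 38.6, 17.7 and 10.1. Efemp1, a fibulin, read 14.3, 19, 158 and 79.4.

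Of 24 proteoglycans and matricellular genes 5 were higher and 2 lower, and the median was 0.32. Mgp, an inhibitor of calcification, read 109 FPKM in wild type, 174 under Gadd45-/-, 93.8 under G3 Terc-/- and 556 under the G3 dKO label. Dcn, the collagen-binding proteoglycan decorin, read 25.6, 28.2, 584 and 67.0, and was the fibroblast marker past the rule. Wisp1, a matricellular CCN protein, was lower, at 208, 157, 53.8 and 70.3.

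**Figure D3:**
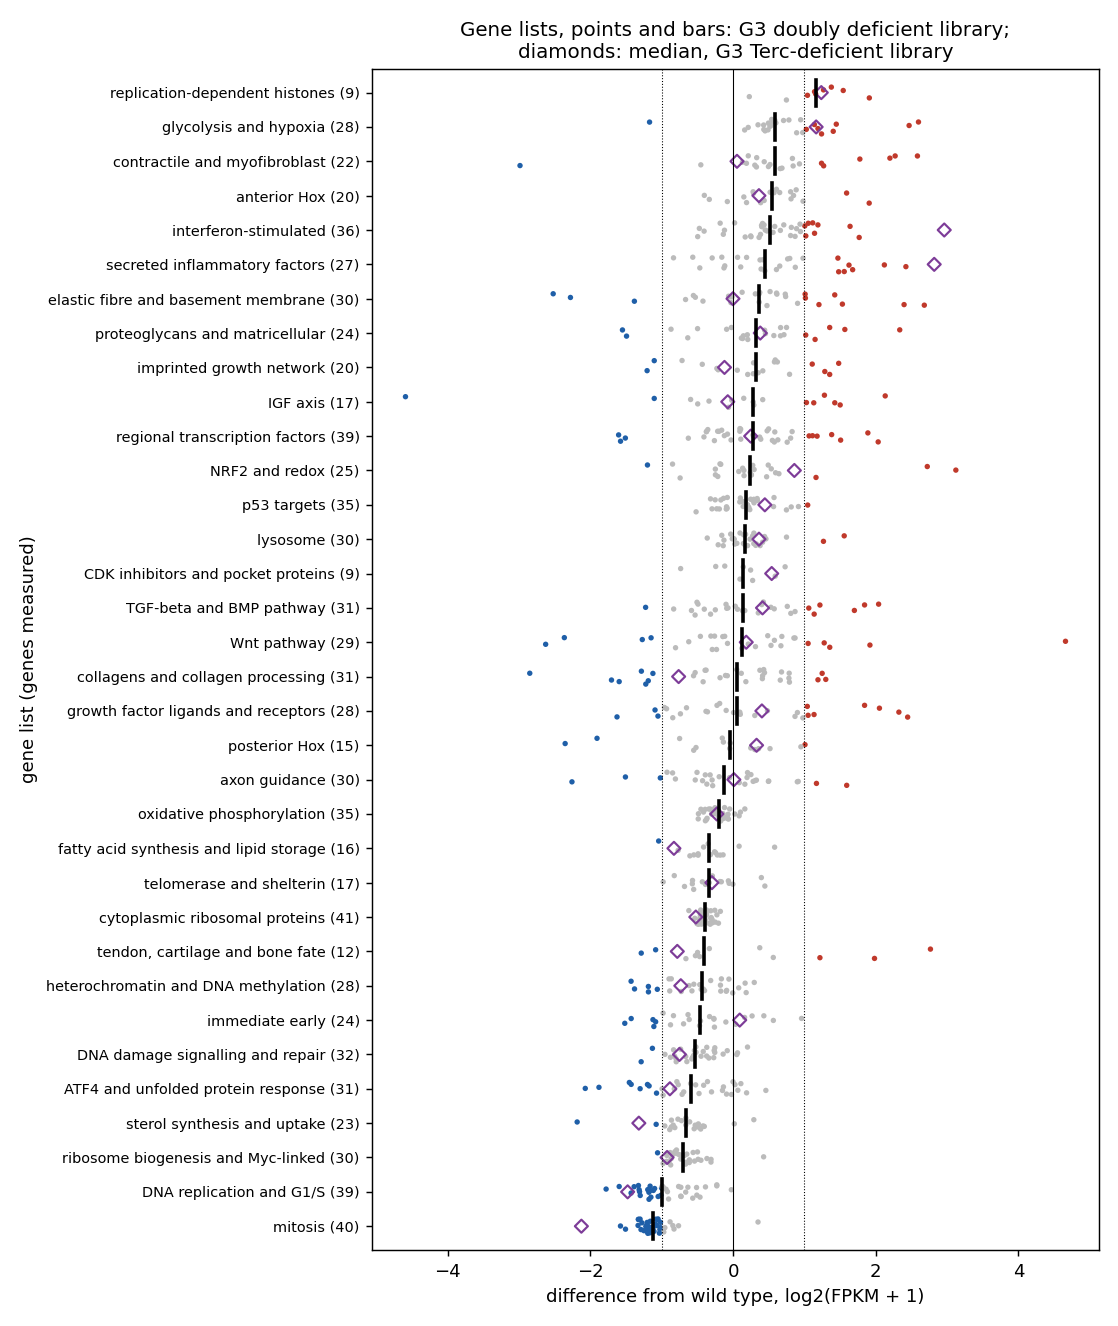
Difference of log2(FPKM + 1) between the library labelled G3 dKO and wild type (horizontal) for the measured members of the gene lists (vertical), as points, with a bar at each list's median, a diamond at its G3 Terc-/- median, and dotted lines at the size rule. The mitosis and replication lists lie left of 0, and the contractile and glycolysis lists lie right of it.

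Wnt signals act through Frizzled receptors, are boosted by R-spondins at Lgr receptors and are held back by secreted Frizzled-related proteins. Of 29 measured members 5 were higher and 4 lower, and the median was 0.12. Sfrp1, such a secreted antagonist, read 6.52 FPKM in wild type, 14.7 under Gadd45-/-, 36.5 under G3 Terc-/- and 189 under the G3 dKO label, 29.0-fold above wild type. The R-spondin gene Rspo3 read 2.31, 3.79, 9.09 and 11.5. On the receptor side Lgr5 read 34.6, 33.6, 1.41 and 4.76, and the ligand Wnt4 8.29, 5.95, 0.658 and 0.803.

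Insulin-like growth factors circulate with binding proteins that limit or prolong their action. Of 17 members of the axis 6 were higher and 2 lower, and the median was 0.28. Igf2, the fetal growth factor, read 209 FPKM in wild type, 177 under Gadd45-/-, 20.7 under G3 Terc-/- and 96.7 under the G3 dKO label, while Igf1 read 3.65, 4.18, 19.5 and 12.2. The binding proteins did not share one direction. Igfbp5 read 470, 223, 22 and 18.5, 25.4-fold below wild type, whereas Igfbp4 read 30.0, 56.7, 104 and 135 and Igfbp3 28.2, 33.1, 23.5 and 77.5.

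The imprinted growth network had 4 higher and 2 lower of 20 measured members, with a median of 0.32. H19, a noncoding RNA next to Igf2, read 389 FPKM in wild type, 313 under Gadd45-/-, 73.8 under G3 Terc-/- and 475 under the G3 dKO label. Mest, a paternally expressed gene, read 27.4, 27.4, 1.27 and 11.3. Meg3, a maternally expressed noncoding RNA, read 118, 136, 236 and 331, and its neighbour Dlk1, a Notch-related transmembrane protein, 6.63, 10.9, 6.05 and 17.6.

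In the TGF-beta and BMP list 6 of 31 measured members were higher and 1 lower, and the median was 0.14. Tgfbi, a matrix protein induced by TGF-beta, read 9.23 FPKM in wild type, 12.2 under Gadd45-/-, 8.95 under G3 Terc-/- and 41.1 under the G3 dKO label. The activin antagonist Fst read 10.6, 21.3, 24.4 and 40.6, and the BMP antagonist Nog 2.3, 2.1, 0.472 and 0.408. A pseudocount of 5 FPKM left 2 higher and 0 lower. Of 28 growth factors and receptors 7 were higher and 3 lower, among them Fgf7, a keratinocyte growth factor, at 7.64, 14.4, 116 and 46.1, Pdgfa at 11.2, 14.5, 28.6 and 49.7, and Gfra1, a GDNF co-receptor, at 32.7, 28.9, 1.93 and 9.91.

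Genes of the ATF4 and unfolded-protein response, which supplies amino acids and chaperones under stress, lay mostly below wild type. Of 31 measured members 8 were lower, 0 higher and 26 below 0, with a median of -0.60, against -0.89 under G3 Terc-/- and -0.21 under Gadd45-/-. Slc7a3, an amino acid transporter, read 9.43 FPKM in wild type, 5.68 under Gadd45-/-, 1.10 under G3 Terc-/- and 1.48 under the G3 dKO label. Trib3, a pseudokinase induced by ATF4, read 70.2, 41.5, 9.60 and 18.3, and Chac1, a glutathione-degrading enzyme, 36.4, 23.1, 11.1 and 12.6. Slc7a5, another amino acid transporter, read 120, 99.5, 17.4 and 47.9, so all 3 mutant labels were below wild type in these 4 genes.

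ATF4 binds C/EBP-ATF elements written TGATGNAA. It was in 8 of 33 windows of the list (24.2%) and in 2.15% of all member windows. Of the 8 lower members of the list only 6 had a window, and 5 of these 6 windows held it. Among all lower members 5.50% of windows held it. Windows of 3 lower genes are shown, chosen after the matches were seen: the pseudokinase Trib3, the asparagine synthetase Asns and the cystine transporter Slc7a11. They are Trib3 (chr2:152344011-152344210, minus strand), Asns (chr6:7693160-7693359, minus strand) and Slc7a11 (chr3:50443564-50443763, minus strand) on GRCm38.p6 from RefSeq, with TGATGNAA on either strand in capitals.
Trib3: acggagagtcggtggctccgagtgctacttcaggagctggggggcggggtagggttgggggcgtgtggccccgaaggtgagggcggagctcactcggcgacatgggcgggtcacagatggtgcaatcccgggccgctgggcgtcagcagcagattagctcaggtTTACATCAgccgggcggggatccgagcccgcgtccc
Asns: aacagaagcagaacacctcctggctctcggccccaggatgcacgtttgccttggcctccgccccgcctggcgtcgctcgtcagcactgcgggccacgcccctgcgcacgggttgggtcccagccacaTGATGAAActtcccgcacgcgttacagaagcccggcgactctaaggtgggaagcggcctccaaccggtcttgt
Slc7a11: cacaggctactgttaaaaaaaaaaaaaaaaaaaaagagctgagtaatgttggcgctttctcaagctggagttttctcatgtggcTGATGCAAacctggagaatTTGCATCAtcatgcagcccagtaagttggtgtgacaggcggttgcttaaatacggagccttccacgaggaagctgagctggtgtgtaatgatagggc

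Sterol genes were mostly below wild type, with 21 of 23 measured members below 0 and a median of -0.66. Only 2 of them were past the size rule, where 2.9% of all members were lower. Lss, lanosterol synthase, read 63.8 FPKM in wild type, 52.1 under Gadd45-/-, 16.2 under G3 Terc-/- and 29.7 under the G3 dKO label. The element TCACNCCAC, a form of the sterol regulatory element, was in 0 of 18 windows of the list and in 1.12% of all windows.

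Glycolysis and hypoxia genes lay mostly above wild type. Of 28 measured members 8 were higher, 1 lower and 27 above 0, with a median of 0.59, against 1.16 under G3 Terc-/- and 0.09 under Gadd45-/-. Adm, the vasodilator adrenomedullin, read 13.3 FPKM in wild type, 21.0 under Gadd45-/-, 360 under G3 Terc-/- and 85.5 under the G3 dKO label. Bnip3, a mitophagy receptor, read 12.1, 15.2, 142 and 71.3, and Slc16a3, a lactate exporter, 28.0, 38.7, 121 and 78.1. The core of the hypoxia element, ACGTG, was in 21 of 40 windows of the list (52.5%), in 5 of 9 windows of its higher members and in 26% of all. Among all higher members 18.6% of windows held it, a smaller share than over all members.

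In the NRF2 and redox list 3 of 25 measured members were higher and 1 lower, and the median was 0.24. Gpx3, a secreted glutathione peroxidase, read 9.86 FPKM in wild type, 11.8 under Gadd45-/-, 59.2 under G3 Terc-/- and 93.6 under the G3 dKO label. Sod3, the extracellular superoxide dismutase, read 13.7, 28.6, 378 and 96.3. Both were highest in G3 libraries. The antioxidant element TGACNNNGC was in 6 of 22 windows of the list (27.3%) and in 14.4% of all. It was in 0 of 2 windows of the list's higher members, 0 of 1 of its lower member and 12.9% of windows of all higher members.

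Immediate early genes, switched on within minutes of a growth signal, included 5 lower and 0 higher of 24 measured, with a median of -0.46 against 0.09 under G3 Terc-/-. Myc, a growth-promoting transcription factor, read 44.5 FPKM in wild type, 36.4 under Gadd45-/-, 31.9 under G3 Terc-/- and 14.9 under the G3 dKO label. Egr1, an early zinc finger factor, read 47.4, 38.8, 72.8 and 21.8, and Spry4, a feedback inhibitor of receptor signalling, 12.4, 10.9, 7.64 and 5.13. The library labelled G3 dKO was the lowest of the 4 in all 3 genes. With a pseudocount of 5 FPKM 1 member was counted as lower.

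Of 30 ribosome biogenesis and Myc-linked genes 1 was lower, against 2.9% of all members. In this list 0 were higher and 29 below 0, and the median was -0.71. The 1 past the rule was Odc1, the first enzyme of polyamine synthesis, which read 120 FPKM in wild type, 111 under Gadd45-/-, 134 under G3 Terc-/- and 57.1 under the G3 dKO label. Npm1, nucleophosmin, read 695, 632, 293 and 363. None of the 41 listed ribosomal protein genes passed the rule, against 6.69% of all members. Yet all 41 lay below 0, with a median of -0.40 that was -0.22 after quantile normalization. Rps27, a ribosomal protein gene outside that list, was called lower, at 420 and 9.7 FPKM. Copies of a gene can share its reads, and their part in this value was not tested. Respiratory chain genes had 0 of 35 past the rule, against 6.69% of all members, and a median of -0.20.

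Most measured replication-dependent histone genes were higher, in contrast to the replication list. Of 9 measured members 7 were higher and 0 lower, and the median was 1.16, and 17 of the 26 listed lay under the limit. Over all members the share of higher genes was 3.79%. Hist1h4a and Hist2h3c2 lay below 1 FPKM in wild type, at 0.462 and 0.628. They reached the required mean only through their G3 dKO values, 2.26 and 3.75. The filter thus favoured such genes, and the count and median describe the measured genes only. Their transcripts mostly lack poly(A), so poly(A) RNA holds a minor, polyadenylated form, and near-identical copies make single values uncertain. Hist1h4h read 2.43 FPKM in wild type, 1.10 under Gadd45-/-, 43.1 under G3 Terc-/- and 11.9 under the G3 dKO label. Hist1h2ab read 2.03, 1.49, 1.85 and 6.31, and with a pseudocount of 5 FPKM 2 histone genes were counted.

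Genes that record position in the embryo differed between the cultures. Of 20 anterior Hox genes 2 were higher and 0 lower, and the median was 0.55. Of 15 posterior Hox genes 1 was higher and 2 lower, with a median of -0.05 that was 0.10 among genes of at least 5 FPKM. Over all members 3.79% were higher and 2.9% lower, and counts this small say little beside those shares. The anterior count was 7 with a pseudocount of 0.1 FPKM, and 1 with 5 FPKM or among genes of at least 5 FPKM, where the medians were 0.27 and 0.33. Hoxa5 read 2.02 FPKM in wild type, 2.12 under Gadd45-/-, 5.73 under G3 Terc-/- and 10.3 under the G3 dKO label, and Hoxa3 1.12, 1.01, 2.49 and 5.38. Hoxd13 and Hoxa13, which mark the most distal limb, read 5.13, 8.66, 1.16 and 0.198, and 3.43, 2.95, 0.367 and 0.182. Hoxc12 read 5.93, 0.626, 7.85 and 12.9, with Gadd45-/- the lowest.

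**Figure D4:**
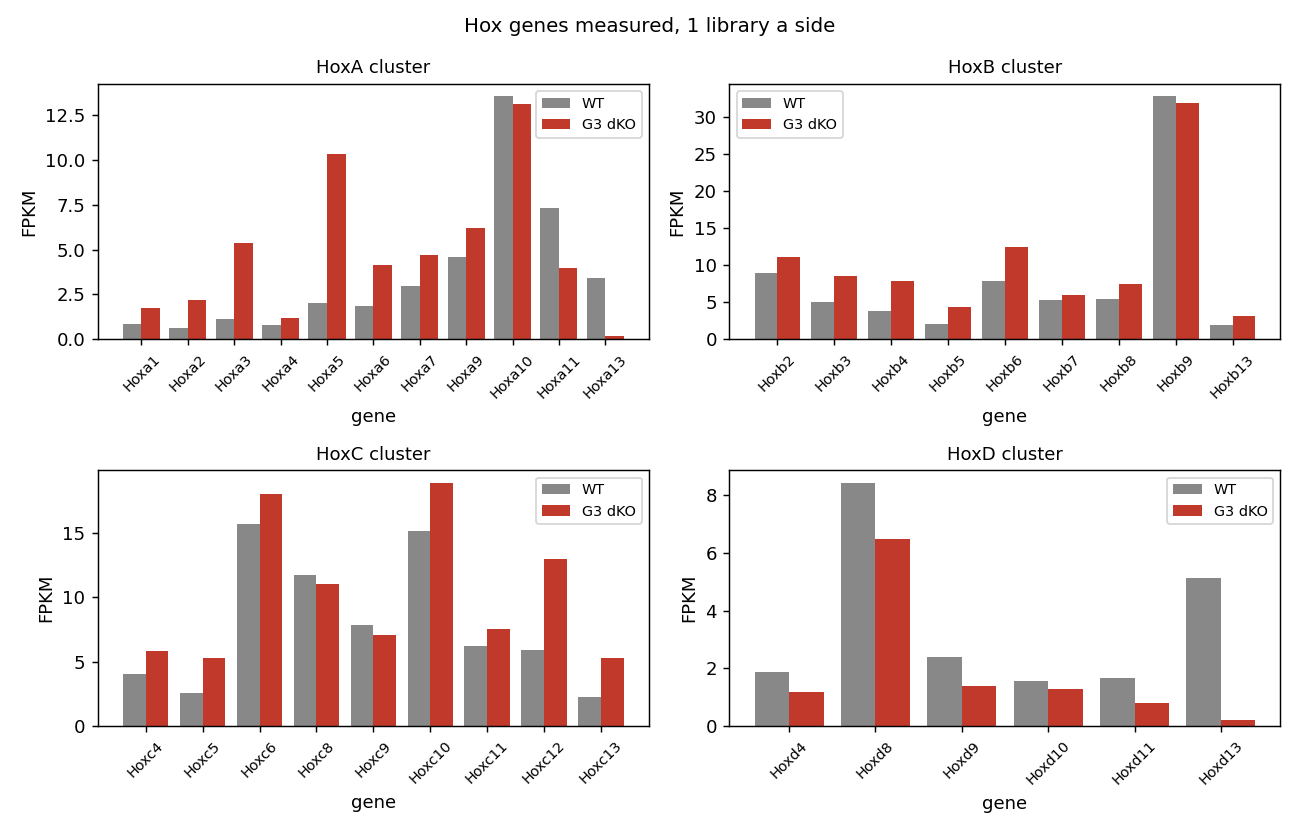
Level in FPKM (bars from 0) of the measured Hox genes of clusters A to D, in wild type (grey) and under the G3 dKO label (red), 1 library each. Hoxa5 stands at 2.02 and 10.3 FPKM and Hoxd13 at 5.13 and 0.198.

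The regional transcription factors counted 7 higher and 3 lower of 39, around a median of 0.28. Irx3, an Iroquois factor, read 10.5 FPKM in wild type, 10.1 under Gadd45-/-, 1.58 under G3 Terc-/- and 2.77 under the G3 dKO label. Twist2, a mesenchymal factor, read 170, 153, 357 and 56.1. A pseudocount of 5 FPKM left 1 each way. In the tendon, cartilage and bone list of 12 genes, 3 were higher and 2 lower: Tnmd, the tendon gene tenomodulin, read 11.9, 14.3, 6.56 and 86.6, and Col10a1, the collagen of hypertrophic cartilage, 2.70, 7.56, 0.208 and 0.514.

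The 20 largest differences each way include genes outside these groups. Among higher genes, 1500015O10Rik read 1.65 FPKM in wild type, 6.07 under Gadd45-/-, 5.93 under G3 Terc-/- and 56.0 under the G3 dKO label, 34.0-fold above wild type. Gzme, a granzyme protease, read 1.07, 4.52, 9.16 and 27.3, and Mcpt8, a protease of the mast cell family, 4.19, 11.2, 19.2 and 42.9. Dmpk, the kinase of myotonic dystrophy, read 10.5, 17.4, 87.5 and 140, and Cck, the hormone cholecystokinin, 24.9, 36.4, 914 and 184. In the first 4 of these genes the library labelled G3 dKO was the highest, and in Cck G3 Terc-/- was. Dhrs3, a retinal reductase, read 2.43, 4.95, 21.9 and 24.4, and Gata2, a transcription factor, 1.03, 2.52, 8.5 and 13.6.

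Further genes of this set encode secreted or surface proteins. Spon2, a matrix protein of the spondin family, read 0.529 FPKM in wild type, 1.55 under Gadd45-/-, 11.1 under G3 Terc-/- and 16.8 under the G3 dKO label. Npr3, the clearance receptor of natriuretic peptides, read 1.3, 1.27, 10.8 and 15.5, and Aoc3, an amine oxidase of the cell surface, 0.574, 1.41, 5.4 and 11.8. Cd59a, an inhibitor of complement, read 2.59, 2.93, 14.7 and 24.5. In these 4 genes the library labelled G3 dKO was the highest and G3 Terc-/- came next. Cpxm1, a carboxypeptidase-like secreted protein, and Ndufa4l2, a mitochondrial protein induced in hypoxia, had G3 Terc-/- highest, at 101 against 37.2 and at 44.7 against 10.4 FPKM under G3 dKO.

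Among lower genes, Crabp1, which binds retinoic acid in the cytoplasm, read 1355 FPKM in wild type, 728 under Gadd45-/-, 621 under G3 Terc-/- and 181 under the G3 dKO label. F2rl1, a protease-activated receptor, read 37.3, 26.3, 5.56 and 4, and Jag1, a Notch ligand, 41.0, 31.0, 8.04 and 6.18. Cd40, a TNF-family receptor, read 11.1, 5.43, 8.34 and 0.648. The factors Bcl11b and Runx3 read 6.83, 5.07, 0.581 and 0.120, and 5.49, 5.33, 0.0412 and 0.0815.

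Some large differences are uncertain, or stand beside markers of other cells. Wild type had LOC100861572 listed at 0 and G3 dKO at 329 FPKM. In the same order the values were 336 and 0 for LOC100861570, 37.3 and 0 for LOC100302567, and 420 and 9.7 for Rps27. Near-identical copies can share reads, and their part in these values was not tested. Alb, serum albumin, was 5.40 FPKM in wild type and 0.0272 under both the Gadd45-/- and G3 dKO labels. Hepatocyte markers summed to 9.84 FPKM in wild type and 0.0932 under G3 dKO, and their part in the lower counts was not tested. Krt8 and Krt18, simple epithelial keratins, were 3.04 and 5.52 in wild type and 0.626 and 1.22 under G3 dKO.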

How the data were processed

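The authors deposited FPKM values, 1 per gene symbol in each of 4 tables, 1 per genotype, a unit taken from the names and values of the deposited tables. Per the submitters' processing notes, the tools and build were TopHat2 2.1.1, Cufflinks 2.2.1 and mm9, with no roles given. The annotation, strand setting and filters are not given in the sources used here. Per the labels' protocols, poly(A) RNA was treated with DNase and copied with random hexamers. FPKM divides by mapped fragments, and Cufflinks can split reads between near-identical or overlapping genes.

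From these values, 743 short RNA symbols were left out, a mean of at least 1 FPKM over the 2 libraries was required, and log2(FPKM + 1) was subtracted (Python 3.11.15, pandas 2.3.3, numpy 2.4.6). No test, interval or p-value was computed. Depth was estimated from values up to 0.05 FPKM on transcripts of 1500 to 8000 nt, of which 77.9% to 80.5% lay within 0.1 of a whole fragment. The procedure was checked on simulated libraries drawn from the wild-type values, with counting noise only and known changes set in some genes. That check holds no variation between cultures, so it cannot say how often the size rule is passed without a genotype difference.

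The members, the 34 gene lists and the 14 marker lists were chosen with earlier results of these data known. Named genes are a set of anchors, the 20 largest differences each way, up to 5 per list, marker genes past the size rule and genes at the limits. The markers Epcam, Cdh1, Cldn5, Krt19, Egfl7, Upk3b, Csf1r, Ptprc, Cd14, Tyrobp, Fcgr3 and Aif1 are outside this rule. So are the sex-linked Xist and Ddx3y and the contractile Des. All of these were named with their values known, as the text says for other such genes. Some results that the rule selects are not reported here. Alternatives were other pseudocounts (0.1 and 5 FPKM), filters, scalings and size rules.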

Additional observations from a re-analysis of the deposited data

How the results depend on the processing

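The counts of 432 higher and 331 lower genes moved by more than 1.5 times under these alternatives: with a pseudocount of 0.1 FPKM they were 661 and 500, with 5 FPKM 170 and 127, 1135 and 1098 under a 1.5-fold rule, 68 and 38 under a 4-fold rule, and 260 higher with a mean of at least 5 FPKM. They stayed within 1.5 times under median-of-ratios scaling (455 and 313), quantile normalization (419 and 329), no filter on low values (455 and 349), short RNA kept (489 and 384) and genes listed at 0 left out (430 and 324). Among the gene lists, a pseudocount of 5 FPKM gave 3 higher and 2 lower Wnt genes (8 and 4 with 0.1), 5 and 0 for glycolysis and hypoxia, 5 and 1 for growth factors, 2 and 1 for imprinted genes, 3 and 0 for redox genes, 1 and 0 for tendon, cartilage and bone, and 0 and 1 for sterol genes. Of the 160 named genes past the size rule, 158 stayed past it under median-of-ratios scaling, 156 after quantile normalization and 110 with a pseudocount of 5 FPKM. All 160 kept their sign, which is no check, since a pseudocount cannot change a sign. The size factors of the pair, 1.00 for wild type and 0.98 for G3 dKO, are also too close to reverse a 2-fold difference. No paired analysis was possible because each genotype has 1 library, and for the same reason no library could be left out. At the estimated depths 3 fragments on a 2 kb transcript are 0.0769 FPKM in wild type and 0.0754 under the G3 dKO label, so values near these are not distinct from 0.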

Other observations

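Some gene groups outside the comparisons above were also measured. Over all members 3.79% were higher and 2.9% lower, and the small counts in these groups say little beside those shares. Of 30 lysosomal genes 2 were higher and 0 lower under the G3 dKO label, Ctsh and Naglu, and the median difference was 0.17. Of 16 fatty acid synthesis genes 1 was lower and 0 higher, with a median of -0.33. Axon guidance genes had 2 higher and 3 lower of 30, with a median of -0.12 that was 0.18 among genes of at least 5 FPKM. Within them the semaphorins did not share one direction: Sema7a was 4.35 FPKM in wild type and 15.1 under G3 dKO, Sema5a 11.6 and 1.64, and Sema3e 6.24 and 1.54. Neural and glial markers summed to 59.0 FPKM in wild type and 110 under G3 dKO, with S100b at 0.316 and 6.4.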
